A study of Mus musculus with 4 samples.

Results

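Across the aorta of control and VEDS mice, 581 regions of open chromatin had their summit inside a coding exon or a 3' UTR, away from any gene start. They were drawn from the ATAC-seq peak lists of the control female and VEDS male libraries. A peak on chromosomes 1 to 19 was kept where its edge was more than 3 kb from every transcription start site (TSS) and its summit lay in the coding sequence (CDS) or 3' UTR of a protein-coding transcript. The control female list gave 170 such peaks and the VEDS male list 553, which after merging of overlapping peaks made the 581 regions in 526 genes. The series holds 64360 deposited peaks from 4 libraries, 2 of each genotype. Aortic nuclei came from untreated mice at postnatal day 60. The control (WT) mice were *Col3a1*+/+ and the VEDS mice *Col3a1*G938D/+, which carry a glycine substitution in 1 allele of the gene for type III collagen and model vascular Ehlers-Danlos syndrome. Each library pooled tissue from 2 mice of one sex, and nuclei of all cell types were analyzed together. The control female and VEDS male libraries differ in genotype, sex and depth, which therefore cannot be told apart, and with 1 library per list no difference between them was tested. Fewer nuclei of a type and less accessible DNA per nucleus cannot be told apart either. Where a pair of values is given for a region, the control female value stands first.

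ATAC-seq marks DNA that the transposase Tn5 can reach, so a peak in an exon is a property of the chromatin and not of the spliced RNA. Coding exons and 3' UTRs are mostly known for what they give the mRNA, the protein code and the sites that govern its stability and translation. Some exons also bind transcription factors and act as enhancers for their own or a neighboring gene, and in such DNA the same bases serve both uses.

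The sequences below are motif matches in the strongest shared regions that hold one, 1 to 3 genes per motif, and are shown because they sit inside exons and within 150 bp of the summits of both libraries. They are from the GRCm38 reference (mm10), read 5' to 3' on the strand of the gene, with the match in capitals. For AP-1 (TGACTCA or TGAGTCA) these were in the 3' UTRs of *Cdc37*, *Apol7b* and *Apol7e*.
*Cdc37*, chr9:21135269-21135297, minus strand: accccggctcgTGACTCAgcatcccctgg
*Cdc37*, chr9:21135197-21135225, minus strand: cattattgttaTGAGTCAcccagtttgaa
*Apol7b*, chr15:77422984-77423012, minus strand: acttttgcctaTGACTCAttcagagctat
*Apol7e*, chr15:77718485-77718513, plus strand: acttttgcctaTGACTCAttcagagctat
For MEF2, the matches were in the 3' UTRs of *Zdhhc23*, *Fam189a2* and *Fam53b*.
*Zdhhc23*, chr16:43965983-43966010, minus strand: catcagcttTTATTATTAAgctcaattg
*Fam189a2*, chr19:23973020-23973047, minus strand: gctgccgggCTATTTATAGcagcctgcc
*Fam53b*, chr7:132714334-132714361, minus strand: cccataaggCTAAAAATAActggtgcat
For CTCF, they were in a coding exon of *Synpo2l* and in the 3' UTRs of *Slc4a3* and *Ror2*.
*Synpo2l*, chr14:20661154-20661181, minus strand: tcatgcagCCACTAGGGGGCaggagtta
*Slc4a3*, chr1:75559668-75559695, plus strand: cgtgtgtaGCCCTCTGGTGGtggttttt
*Ror2*, chr13:53109744-53109771, minus strand: ctccgtgaGCCCCCTGCTGGcggaggat
The single full cyclic AMP response element (CRE, TGACGTCA) so placed was in the 3' UTR of *Itpkb*, and the only matches to the SRF CArG box were in the 3' UTRs of *Ldb3* and *Itgb3*.
*Itpkb*, chr1:180422635-180422662, plus strand: tttcaggggaTGACGTCAcctcctagag
*Ldb3*, chr14:34528934-34528961, minus strand: ctttcctcaCCAAAAAAGGaagagttgt
*Itgb3*, chr11:104670373-104670400, plus strand: agtctttgtCCATTTTTGGttgaaattg
The *Apol7b* and *Apol7e* lines are identical. These paralogs are near copies around the summit, so the signal of one may not be separable from that of the other.

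The lists differed widely in length, from 41444 peaks in the VEDS male and 21176 in the control female library to 1236 and 504 in the control male and VEDS female libraries. The median number of fragments overlapping a summit (the pileup, worked out from the fold enrichment and −log10 p of each peak) was 14 for the control female list and 22 for the VEDS male list. The units of the pileup are called fragments here, but since cut sites were corrected for Tn5 they may be cut sites. Total reads per library were not used here. As a check of the tissue, all 6 vascular smooth muscle cell (VSMC) marker genes had a promoter peak in both lists. Markers of other cells had fewer, with 1 and 3 of 4 endothelial, 2 and 2 of 4 fibroblast, 0 and 2 of 4 adipocyte, 0 and 1 of 4 immune and 0 and 1 of 4 striated muscle genes in the control female and VEDS male lists, respectively. Which cell type an exonic peak came from was not tested, since all nuclei were pooled.

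Distal summits had similar densities in 3' UTRs and in introns. In the control female list there were 3.35 summits per Mb of distal CDS, 5.06 per Mb of 3' UTR, 5.60 per Mb of intron and 3.57 per Mb of intergenic sequence. In the VEDS male list the same densities were 12.9, 14.9, 14.0 and 8.16 per Mb. The CDS was near intergenic sequence in the control female list and closer to introns in the VEDS male list. Exonic members made up 1.90% of the 8952 distal peaks of the control female list (95% Wilson interval 1.64 to 2.20) and 2.56% of the 21638 of the VEDS male list (2.35 to 2.77), where intervals cover counting error only. Of the merged regions, 237 (40.8%) had a CDS summit, 341 (58.7%) a 3' UTR summit, and in 3 the summits of the libraries fell on either side of the boundary.

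**Figure D1:**
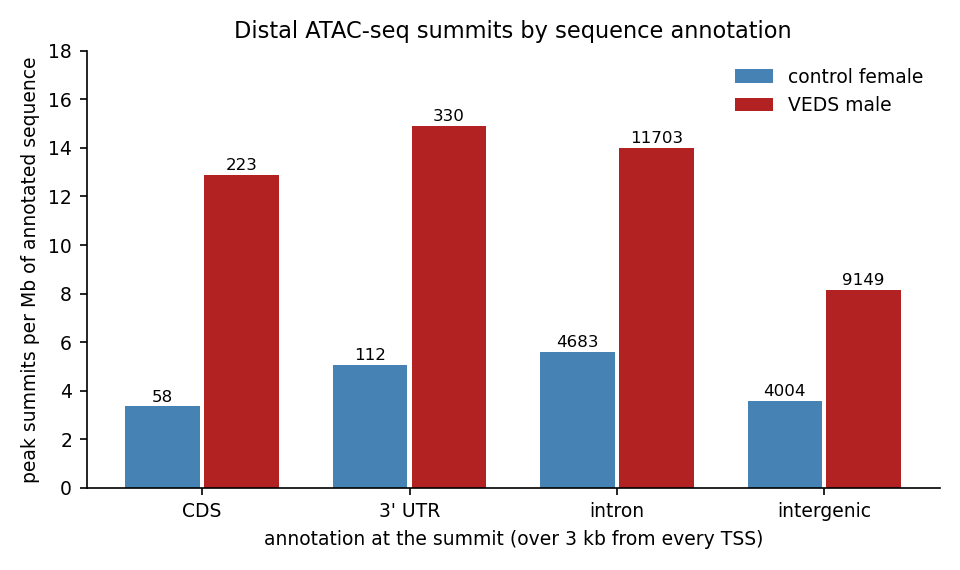
Bars give the number of distal peak summits per Mb of annotated sequence (y axis, linear from 0) for 4 annotations in the control female (blue) and VEDS male (red) lists, each from 1 library with no error bar, and the number above each bar is its count of peaks. The CDS bar is the lowest in the control female list at 3.35 per Mb, and in the VEDS male list the intergenic bar is the lowest at 8.16 per Mb.

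The 3 kb limit cut through a continuous range of distances. Just inside it were the *Rapgef4* CDS peaks, whose edges lay 3004 bp (control female) and 3005 bp (VEDS male) from a TSS, the *Spib* CDS peak of the VEDS male list at 3005 bp and the *Maf* 3' UTR peak of the control female list at 3024 bp. Just outside were *Lrrc14* at 2969 bp and *Tnrc6b* at 2876 bp in the control female list, and *Ppp1r14a* at 2988 bp and *Nol3* at 2974 bp in the VEDS male list. With transcript starts of RefSeq as a second annotation, 7 of 58 CDS and 3 of 112 3' UTR peaks of the control female list had a start within 3 kb, as did 13 of 223 and 12 of 330 of the VEDS male list, beside 6.75% and 6.66% of intronic and 9.72% and 9.17% of intergenic peaks. Within 1 kb there were 3 and 1 in the control female list and 8 and 3 in the VEDS male list.

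Of the 581 regions, 142 were found as exonic peaks in both libraries (24.4%, 21.1 to 28.1), against a background of 35.9% over all 22351 merged distal regions. The background counts a distal peak of any kind in each list, whereas the 142 needed an exonic summit in both. A further 411 of the 581 came from the VEDS male list and 28 from the control female list. As a share of each list, 83.5% of the control female and 25.7% of the VEDS male members were in both, in lists of unequal length. Counting any peak of the other list, the shares were 92.1% and 36.1% of intronic and 92.4% and 39.3% of intergenic distal peaks. By position, 41 of 237 CDS regions were in both (17.3%, 13 to 22.6) and 98 of 341 in 3' UTRs (28.7%, 24.2 to 33.8), beside 34.6% of intronic and 37.9% of intergenic regions. The CDS share was the lowest of the 4 kinds, a difference that was not tested. When the VEDS male list was cut to its 20655 strongest peaks, as many as the control female list has on these chromosomes, 35.7% of 84 CDS regions (26.3 to 46.4) and 50.4% of 141 3' UTR regions (42.2 to 58.5) were in both, beside 51.0% of intronic and 54.1% of intergenic regions. By this count the intervals of CDS and 3' UTR regions overlapped, and only that of 3' UTR regions included the intronic share. Regions whose overlapping peaks had summits in different kinds of sequence were left out of it. Such regions are likely to be shared, so the shares at equal length may be too low. How far this lowered the CDS share was not measured. Counting a peak of any kind over the region, rather than an exonic one, 166 of the 581 were covered in both lists (28.6%, 25 to 32.4). In the VEDS male list alone 397 were covered, and 18 in the control female list alone. By that count CDS and 3' UTR regions were closer to each other. Covered in both lists were 62 of 237 CDS regions (26.2%, 21 to 32.1) and 101 of 341 3' UTR regions (29.6%, 25 to 34.7). By peak, 57 of 223 CDS peaks of the VEDS male list overlapped a control female peak (25.6%, 20.3 to 31.7). So did 99 of 330 3' UTR peaks (25.3 to 35.2%). Both intervals lay below the intronic 36.1% and intergenic 39.3%. The control female counts were 49 of 58 (84.5%, 73.1 to 91.6) and 103 of 112 (85.4 to 95.7%). Of these, only the 3' UTR interval included the intronic 92.1% and intergenic 92.4%.

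The summits of the 142 shared regions were mostly close together. The median distance between the summits was 36.5 bp, 122 of 142 lay within 100 bp, and the widest distance was 768 bp, in *Eppk1*. Each peak was given a rank percentile, its place in the list by −log10 q, where a low percentile is a strong peak. Across the 142 regions the percentiles of the libraries had a Spearman coefficient of 0.774, given as a description over regions that share libraries, depth and sequence. The pileup was higher in the VEDS male library at 141 of 142, which is also the library with the higher median pileup over all peaks. In the VEDS male list shared regions had a median pileup of 29 fragments and width of 354 bp, against 15 fragments and 195 bp for those in that list only. In the control female list the corresponding medians were 12 fragments and 233 bp against 8 fragments and 143 bp. A call in both lists favors strong and wide peaks by construction, and intronic and intergenic peaks were not compared in this way.

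**Figure D2:**
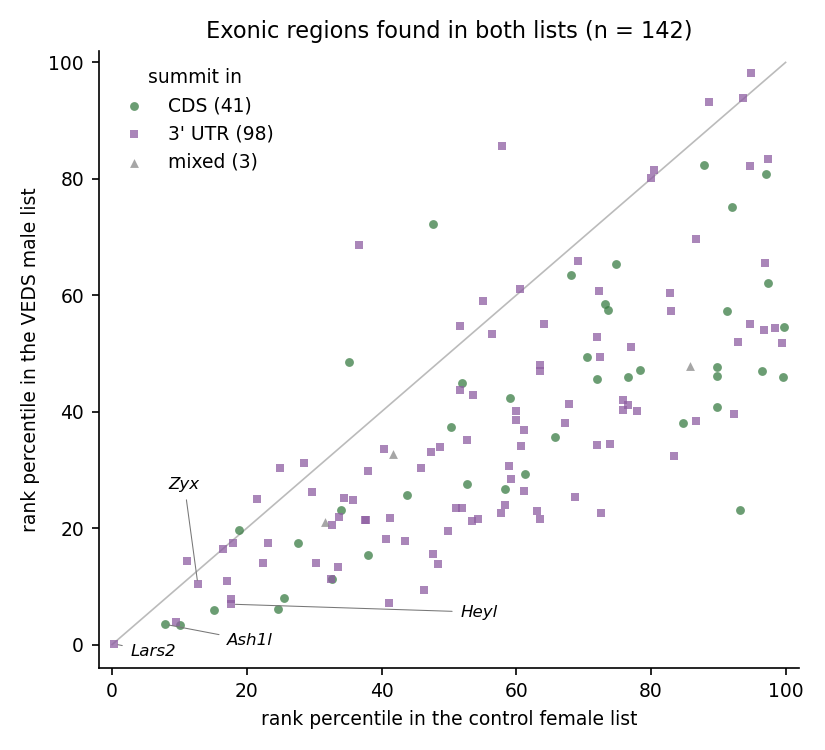
Each point is 1 of the 142 exonic regions found in both lists, placed by its rank percentile in the control female (x axis) and VEDS male (y axis) lists, where 0 is the strongest peak, and the line marks equal percentiles. The percentile is lower in the VEDS male list for 125 of 142 regions (88.0%, beside 86.6% of all shared distal regions, in lists of unequal length), and *Lars2*, *Ash1l*, *Zyx* and *Heyl* lie near the origin.

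In the top 25% of both lists there were 17 exonic regions, 5 in CDS and 12 in 3' UTRs. They made up 12% of the 142, beside 11.3% of all 8031 shared distal regions. The strongest in coding sequence was in *Ash1l*, a histone methyltransferase, in the 4558-bp exon 3 of 28 (chr3:88983951-88984494). Its summit held 30 and 76 fragments, at the 7.82 and 3.49 percentiles. The peak of *Sema4b*, a semaphorin, was centered on exon 7 of 15, only 114 bp long, with 26 and 72 fragments and summits 1 bp apart. In *Sptbn4*, a beta spectrin, exon 33 of 36 held a shared peak of 25 and 66 fragments, and exon 14 another of 16 fragments in the VEDS male list only. *Synpo2l*, which encodes an actin-associated protein of the synaptopodin family, had 27 and 50 fragments over its last exon, with the summit at the same base in both libraries and the CTCF match printed above 31 bp from it. These 4 were named for their rank, and the median CDS member was at the 74.2 and 65.0 percentiles.

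Next in rank among CDS regions were *Eppk1*, *Slc4a5*, *Zfp771* and *Sash1*. *Slc4a5*, a sodium bicarbonate cotransporter, had 19 and 56 fragments over the 189-bp exon 10 of 24. *Zfp771*, a zinc finger protein, had 22 and 50 over its last exon, in windows of 70.0% and 69.7% GC. *Sash1*, a scaffold protein with SAM and SH3 domains, carried a pair of shared peaks in exon 18 of 20, the stronger with 21 and 59 fragments and the weaker, less than 1 kb away, with 11 and 21. *Eppk1*, the cytoskeletal linker epiplakin, was unusual in width, 1824 and 2861 bp, and is taken up with the repeated exons.

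In 3' UTRs the strongest region was in *Lars2*, the mitochondrial leucyl-tRNA synthetase, with 65 and 154 fragments and the 0.255 and 0.118 percentiles, but 60.0% of the 31-base words of its summit window occur more than once in the genome. The region of *H13*, which encodes signal peptide peptidase, had 27 and 84 fragments, its summits lying 3140 and 3112 bp past the stop codon. *Zyx*, the focal adhesion protein zyxin, had 36 and 79 fragments, at the 12.7 and 10.3 percentiles. *Cdc37*, a cochaperone of Hsp90 for kinases, had 32 and 63 fragments, with an AP-1 match 22 bp from the control female summit and another 8 bp from the VEDS male summit, both printed above. *Heyl*, a basic helix-loop-helix repressor induced by Notch, had separate shared peaks in 1 exon. The first, with summits 606 and 653 bp past the stop codon, had 30 and 87 fragments, and the second, at 2694 and 2675 bp, had 28 and 66. *Nmt1*, an N-myristoyltransferase, *Slc9a3*, a sodium-proton exchanger, and *Mkln1*, the intracellular protein muskelin, completed the 8 with 24 to 31 and 50 to 78 fragments. The median 3' UTR member had 12 and 18 fragments.

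Most genes had a single region. Of the 526 genes, 479 had 1, 41 had 2, 4 had 3 and 2 had 4. *Syne1*, the giant nuclear envelope spectrin nesprin-1, had 4 CDS regions between exons 43 and 55 of 146, all in the VEDS male list alone with 17 to 32 fragments. *Hrnr*, the epidermal protein hornerin, had its 4 in the repeats of 1 exon. *Macf1*, a spectraplakin that links actin to microtubules, had CDS regions at exons 35, 45 and 61 of 98, of which only the last was in both lists (9 and 14 fragments). *Itgb3*, integrin beta 3, had a VEDS male CDS peak at exon 2 of 15 (47 fragments) and a pair of shared peaks in the last exon, one with 20 and 59 and the other, at the end of the transcript, with 9 and 23. *Trabd2b*, a membrane protease that acts on Wnt ligands, had 3 regions along its 3' UTR, the last of which was shared (22 and 52 fragments). *Bcl9l*, a coactivator of beta-catenin, had 3 around its stop codon and 3' UTR, the shared one with 21 and 44.

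**Figure D3:**
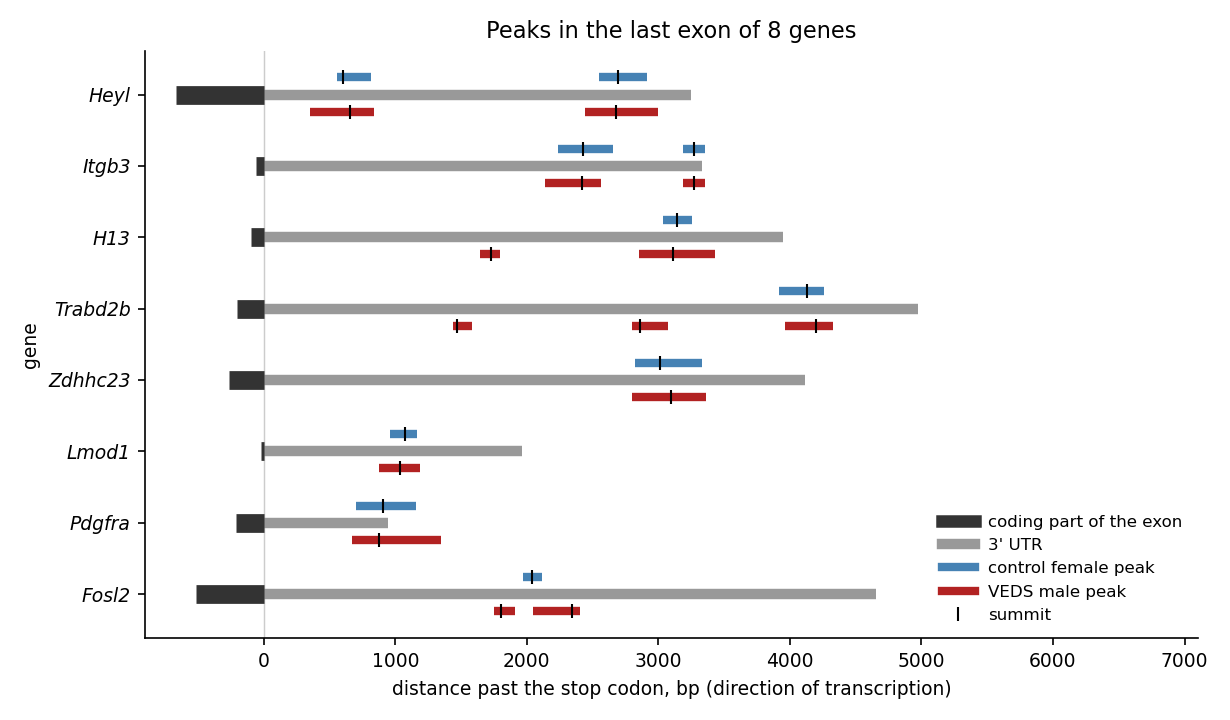
The last exon of 8 genes is drawn by distance from the stop codon in the direction of transcription (x axis, bp), with the coding part in black, the 3' UTR in grey, control female peaks in blue above, VEDS male peaks in red below and summits as ticks. *Heyl* and *Itgb3* each have 2 regions in which both libraries have a peak, while *Trabd2b* and *H13* have further peaks in the VEDS male list only, and *Pdgfra* has its peak at the end of the transcript.

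Genes of the VSMC contractile and cytoskeletal list carried exonic peaks at 12 of 52 genes with distal exon sequence (23.1%), beside 526 of all 15605 such genes (3.37%). Per length these were 17 regions in 300 kb of distal CDS and 3' UTR, or 56.7 per Mb, beside 14.6 per Mb over all genes. No test was made of the list, which was drawn up with earlier results of these data known. *Zyx*, *Ldb3*, *Lmod1* and *Macf1* had a region in both lists. *Ldb3*, a Z-line protein, had 17 and 55 fragments around the CArG box printed above, the match lying 23 bp from the control female and 29 bp from the VEDS male summit. *Lmod1*, leiomodin 1, which nucleates actin filaments in smooth muscle, had 17 and 58 in its 3' UTR, which also holds a pair of AP-1 matches, and a VEDS male peak of 47 at its coding exon 2. The other 8 genes were in the VEDS male list alone, among them the calcium channel *Cacna1c* (18 fragments), the myocardin-related factor *Mrtfb* (18 in one region and 13 in another), *Synpo* (23 and, in another region, 21), *Tns1* (18) and *Lpp* (11). Peaks in *Ahnak*, *Synpo2* and *Dst* had only 7 to 9 fragments and were weak, at the 98.8, 99.9 and 89.7 percentiles of the VEDS male list. The *Tns1* peak was also weak in spite of its 18 fragments, at the 97.5 percentile with a fold enrichment of 2.69. The *Ahnak* window was 100% repeated, counted as for *Lars2*.

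Integrin genes had exonic peaks at 4 of 19 (21.1%) and Notch pathway genes at 3 of 16 (18.8%), beside 3.37% of all genes. Per length these were 75.2 and 92.4 regions per Mb, beside 14.6, from 6 and 5 regions. Beside *Itgb3*, *Itga10* had a shared 3' UTR region (8 and 19 fragments), while *Itga2* was found in the VEDS male list only (10 fragments) and *Itgb7* in the control female list only (8 fragments). The Notch genes were *Heyl*, the receptor *Notch3*, with a shared region at exon 24 of 33 (7 and 18 fragments) and a VEDS male peak in its last exon (9 fragments), and the receptor *Notch2*, with 14 fragments in the 3' UTR in the VEDS male list. Of these genes, *Heyl* alone had regions among the 8 strongest of either kind.

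Among 30 collagen genes *Col5a1* alone (3.33%, beside 3.37% of all genes) had a region, a VEDS male 3' UTR peak of 10 fragments, so that *Col3a1* itself had no member. The 6 of 50 elastic fiber and other matrix genes (12%, and 29.9 regions per Mb beside 14.6) were *Fbln5* (16 fragments), *Timp2* (12), *Tnxb* (13), *Lama5* (26) and *Fbln2* (9) in the VEDS male list and *Hspg2*, perlecan, in the control female list (12). None of the 6 was a member in both lists. *Acvrl1*, a BMP9 receptor of endothelium, was the single gene of 25 in the TGF-beta and BMP list, with 38 fragments in the VEDS male list. *Fosl2*, an AP-1 subunit, was 1 of 12 genes of AP-1, MEF2 and SRF factors. It had a shared region in its 3' UTR, where the summits were 300 bp apart (8 and 24 fragments), and a second in the VEDS male list (14 fragments). The fibroblast marker *Pdgfra* had a strong shared peak at the end of its transcript (25 and 44 fragments), and *Neb*, nebulin of striated muscle, a VEDS male peak of 11. No member was found in 12 steroid receptor, 30 Hox and cardiovascular transcription factor, 15 endothelial, 17 adipocyte, 14 immune or 15 neural genes with distal exon sequence. These lists are short, only 3.37% of all genes had a member, and no list was tested.

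The shares of windows with a motif match differed between CDS and 3' UTR members, though no difference was tested. In the 300-bp windows around VEDS male summits, AP-1 matched 15 of 223 CDS windows (6.73%, 4.12 to 10.8) and 54 of 330 3' UTR windows (16.4%, 12.8 to 20.7), beside 16% of intronic and 15.3% of intergenic distal windows of the same length. In the control female list, AP-1 matched 7 of 58 CDS windows (12.1%, 5.97 to 22.9) and 26 of 112 in 3' UTRs (23.2%, 16.4 to 31.8), beside 18.9% and 18.8%. The 3' UTR windows were thus close to other distal windows in both lists, and the CDS windows were lower, though in the control female list their interval included the intronic share. MEF2 matched 2.69% of CDS windows (1.24 to 5.74) in the VEDS male list beside 8.95% in introns, and matched 6.36% of 3' UTR windows (4.20 to 9.53). Of control female windows it matched 3.45% in CDS (0.951 to 11.7, which includes the intronic 10.7%) and 5.36% in 3' UTRs (2.48 to 11.2). The CArG box of SRF matched 1 of 223 CDS windows (0.448%, 0.0792 to 2.50) and 16 of 330 3' UTR windows (4.85%, 3.01 to 7.73), beside 4.08% in introns, but in the control female list it matched 0 of 58 and 2 of 112 (1.79%, 0.491 to 6.28) beside 4.53%. The base composition of the windows differed as well, with a median GC of 54.3% in CDS, 51.3% in 3' UTR and 49.3% in intronic windows of the VEDS male list. Its part in the motif shares was not tested.

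The CTCF core stood higher in 3' UTR windows of the VEDS male list, at 23 of 330 (6.97%, 4.69 to 10.2), beside 2.85% of intronic and 4.82% of intergenic windows. That interval included the intergenic share. CTCF matched 10 of 223 CDS windows of this list (4.48%, 2.45 to 8.06). In the control female list it matched 4 of 112 3' UTR windows (3.57%, 1.40 to 8.82) and 2 of 58 CDS windows. The intronic 1.49% and intergenic 3% were both inside the 3' UTR interval. ZEB1 (CAGGTG) matched 18.8% of CDS (14.2 to 24.5) and 17.0% of 3' UTR windows (13.3 to 21.4) of the VEDS male list. The intergenic share of 15.3% was inside both intervals, and the intronic 13.8% inside that of 3' UTRs only. In the control female list the CDS and 3' UTR shares were 15.5% and 10.7%, beside 11.9% of intronic and 13.2% of intergenic windows. TEAD (CATTCCA or CATTCCT) matched 10.3% and 14.2% of CDS and 3' UTR windows beside 17.7% in introns in the VEDS male list, and 15.5% and 17.9% beside 19.4% in the control female list. The full CRE was found in 3 of 58 CDS windows of the control female list and in 4 of 223 of the VEDS male list, and the NFI palindrome in no exonic window of either list. A match is a description of the sequence, and no match says only that these letters are absent from the window.

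**Figure D4:**
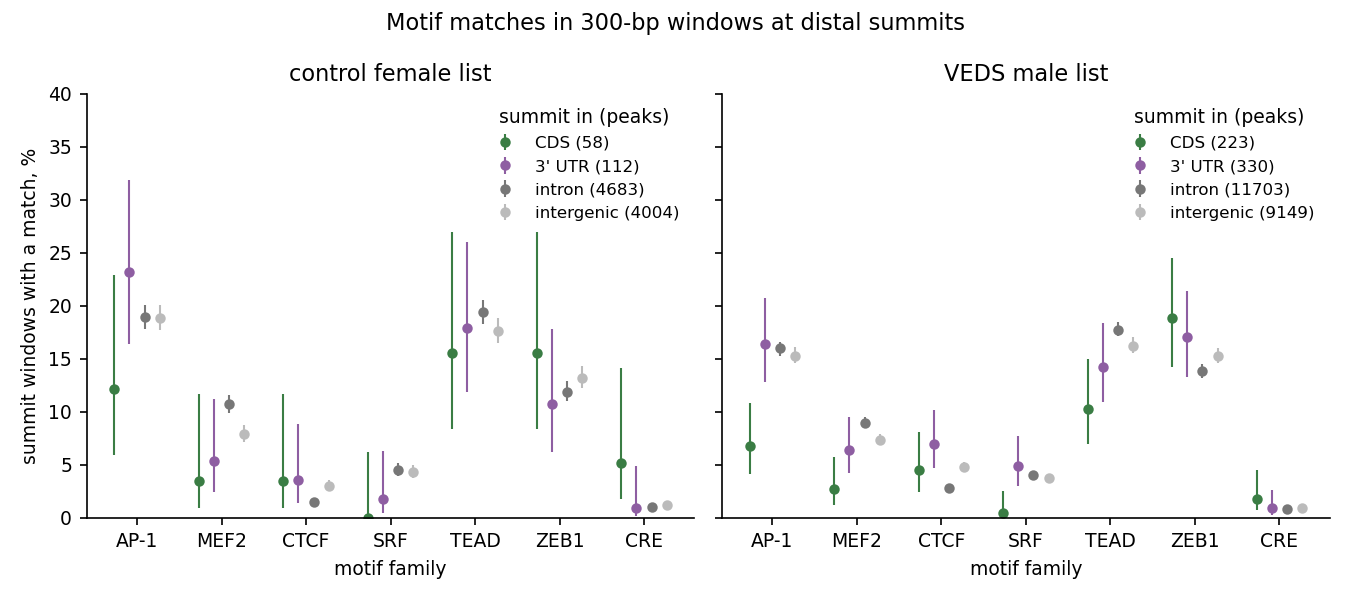
Points give the share of 300-bp summit windows with a match to each of 7 motif families (y axis, %) for CDS, 3' UTR, intronic and intergenic distal peaks, in the control female list on the left and the VEDS male list on the right, with 95% Wilson intervals that cover counting error only. In the VEDS male list the CDS points for AP-1 (6.73%), MEF2 (2.69%) and SRF (0.448%) lie below those of the other annotations, and the 3' UTR point for CTCF (6.97%) is the highest of its family.

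At the level of single regions, AP-1 matches inside the exon and within 150 bp of both summits were found in 26 of the 140 shared regions outside chromosome 18, 4 in CDS and 22 in 3' UTRs. There were 7 such regions for MEF2, 5 for CTCF, 2 for SRF and 1 for CRE. *Zdhhc23*, a palmitoyltransferase gene, had MEF2 matches in different shared regions, the one printed above in its 3' UTR (23 and 43 fragments) and another in its coding exon 3 (13 and 26). The matches in *Fam189a2* (20 and 47 fragments) and *Fam53b* (16 and 42) lay within 31 bp of both summits. *Slc4a3*, an anion exchanger, had 15 and 61 fragments at its CTCF match, and *Ror2*, a receptor for Wnt5a, 10 and 35 with a pair of CTCF matches, 1 of them printed. *Itpkb*, an inositol trisphosphate kinase, had 21 and 48 fragments with its CRE 31 bp from the control female and 19 bp from the VEDS male summit. In *Itgb3* the CArG box belonged to the weaker region at the end of the transcript, at the 96.9 and 65.6 percentiles.

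Nearly all 3' UTR summits were in the last exon, 110 of 112 in the control female and 329 of 330 in the VEDS male list, and the whole peak lay inside the exon in 93.8% and 93.6%. The median host exon of these was 3044 and 2850 bp long, the median distance past the stop codon 1284 and 1199 bp, and the median place along the 3' UTR 52.6% and 53.0% of its length. The peaks thus showed no lean towards the stop codon or the end of the transcript in the median. CDS summits were mostly in internal exons, 67.2% and 70.4%, and the whole peak lay inside the exon in 44.8% and 41.3%. In 17.2% and 19.3% the peak covered the whole exon, as at *Sema4b*, so that part of the open DNA was intronic.

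The share of CpG-rich windows was highest in CDS, where CpG-rich means over 50% GC with an observed to expected CpG ratio over 0.6. This held for 14 of 58 CDS windows in the control female list (24.1%, 15 to 36.5) and 34 of 223 in the VEDS male list (15.2%), beside 3.57% and 3.33% in 3' UTRs, 1.99% and 1.86% in introns and 7.02% and 5.45% in intergenic windows. Among the strongest were *Sptbn4*, *Slc4a5* and *Zfp771*, with CpG ratios of 0.937, 0.680 and 1.38 in the VEDS male list. CpG-rich DNA is typical of promoters. These 3 lay more than 5 kb from a RefSeq transcript start. The VEDS male CDS peak of *Slc1a6*, also CpG-rich (62.7% GC, ratio 0.611), had a RefSeq start inside it. Whether CpG-rich members are promoters missing from the annotation was not tested.

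The widest exonic peaks lay over repeated sequence. In 22 of the 581 regions, 15 in CDS and 7 in 3' UTRs, over 50% of the 31-base words of a summit window occurred more than once in the genome. By peak, this held for 7 of 58 CDS (12.1%) and 3 of 112 3' UTR peaks (2.68%) of the control female list and 6.28% and 2.12% of the VEDS male list. In introns the shares were 5.92% and 6.54% and in intergenic sequence 8.82% and 10.5%, so that 3' UTR peaks had the lowest shares. All 7 regions with a peak of at least 1 kb were among these 22, in *Eppk1*, *Gm9573*, *Plin4*, *Hrnr* (2 regions), *Muc6* and *Muc5b*. In the wide regions of *Eppk1*, *Gm9573*, *Hrnr* and *Muc5b* 100% of the words recurred within the same exon, as did 72.2% in *Muc6* and 41.9% in *Plin4*. These exons encode tandem repeats, of plakin units in *Eppk1*, mucin domains in *Muc6* and *Muc5b* and the lipid droplet binding repeats of *Plin4*. Outside the 22 regions no CDS peak was wider than 876 bp and no 3' UTR peak wider than 764 bp. How reads that map to several places were treated is not given in the sources used here, so the heights and widths of these regions are uncertain.

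The same exons were the ones seen in the short control male list. It overlapped 6 of the 581 regions (1.03%), beside a background of 1.6% of all merged distal regions, and the VEDS female list overlapped 0, beside 0.693%. The 6 were *Eppk1*, *Gm9573*, *Plin4*, *Hrnr*, *Muc6* and *Lars2*, and all 6 were among the 22 with repeated words. In the control male list the *Eppk1* peak was 1666 bp wide with a fold enrichment of 8.62, and that of *Lars2* ranked 40 of 1236. No exonic region outside repeated sequence was thus seen in a short list, and with lists of 1236 and 504 peaks a region without a peak was not taken as closed.

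**Figure D5:**
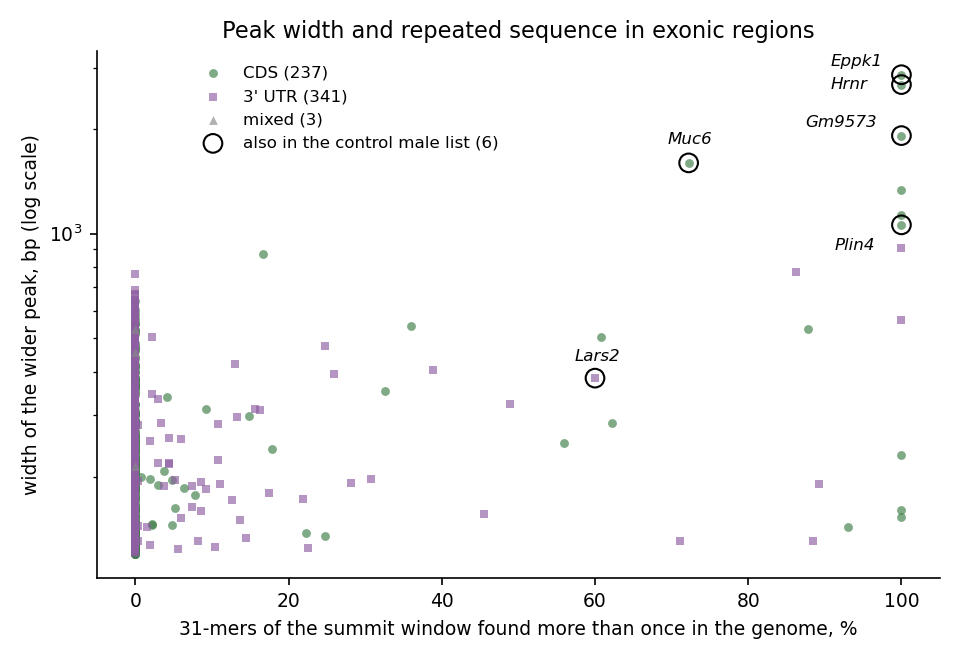
Each point is 1 of the 581 exonic regions, placed by the share of 31-base words of its summit window that occur more than once in the genome (x axis, %, the higher value where both lists have a peak) and by the width of its wider peak (y axis, bp, log scale). The 6 regions that also have a peak in the control male list, circled, all lie above 50% on the x axis, and no region below 50% reaches 1 kb.

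Among members of one list alone, the 5 strongest covered by no VEDS male peak were in *Mroh6*, *Ccm2l*, a paralog of the cerebral cavernous malformation gene *Ccm2*, the predicted gene *Gm8765*, *Itpripl2* and *Tnni3k*, a cardiac kinase, with 8 to 11 fragments and widths of 126 to 263 bp. The *Gm8765* window was 93.0% repeated. *Tnni3k* had a second such region in the neighboring exon, with 7 fragments. The 5 strongest covered by no control female peak were in *Slc43a2*, an amino acid transporter (43 fragments), *Inka2*, an inhibitor of the kinase PAK4 (41), *Klf6*, a zinc finger transcription factor (41), *Wwc2*, of the Hippo pathway (33), and *Skap2*, an adaptor protein (32), between the 18.6 and 26.5 percentiles of the VEDS male list. Whether these were open in the control aorta below the depth of the control female library cannot be told from the list.

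Genes with an exonic peak mostly had a peak at a promoter as well. In the control female list 54.5% of the 55 host genes of CDS peaks (41.5 to 67) and 70.9% of the 110 host genes of 3' UTR peaks (61.8 to 78.6) had a promoter peak, beside 51.5% of all 15605 genes with distal exon sequence and 68.2% of genes with an intronic distal peak. In the VEDS male list the shares were 75.5% of 204 and 81.7% of 311, beside 63.4% and 80.8%. Hosts of 3' UTR peaks were thus close to genes with an intronic peak in both lists, and hosts of CDS peaks lay between these and all genes. Intronic distal peaks were found in 29.1% and 45.5% of the CDS and 3' UTR host genes of the control female list, beside 13.3% of all genes, and in 57.8% and 47.6% beside 23.1% in the VEDS male list. Gene length, which moves the number of distal peaks a gene can hold, was not taken into account.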

How the data were processed

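The authors prepared aortic nuclei with a single-cell ATAC kit and analyzed each library in aggregate. Reads were aligned to mm10 and narrow peaks were called with MACS2 for each library after duplicates were removed by barcode and cut sites corrected for Tn5, and blacklisted regions were left out. The aligner is not given in the sources used here. Each deposited peak has a position, a score (a whole number made from its −log10 q), a summit, a fold enrichment (the ratio of the pileup to the local background of its library), and the authors' −log10 p and −log10 q. These were used within a list only.

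Annotation came from GENCODE vM21 (GRCm38, the build of mm10). Where transcripts differ, CDS took precedence over 3' UTR, other exons and introns. Peaks overlapping by at least 1 bp were merged. The pileup was solved as the whole number that fits both the fold enrichment (MACS2 adds a pseudocount of 1) and the Poisson −log10 p of a peak, found for 99.9% of peaks of the control female and 99.93% of the VEDS male list. Consensus motifs of 8 families were searched on both strands in 300-bp windows, and matches of different families may overlap. The share of repeated sequence counts 31-base words found more than once on either strand of the assembled chromosomes. Recovery, distances and motif search were checked on simulated data. Shares have 95% Wilson intervals, and no genotype or list was tested. Stricter −log10 q, equal list size, other distances, annotations, overlaps, windows and a filter on masked bases were tried as alternatives.

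Genes were named by a rule: the 8 highest shared regions in CDS and in 3' UTRs by the worse of their rank percentiles, genes with 3 or more regions, members of 15 gene lists, regions with a peak in a short list, the 5 highest of each list alone, and up to 3 regions per printed motif. *Sptbn4*, *Sash1*, *Zdhhc23*, *Tnni3k* and *Lmod1* have further regions that are given with them. The CpG-rich and repeated regions were chosen after their values were seen. The members and lists were chosen with earlier results of these data known. Scripts ran in Python 3.11.15 (pysam 0.24.0, numba 0.67.0, numpy 2.4.6, scipy 1.17.1, pandas 2.3.3, matplotlib 3.10.9).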

Additional observations from a re-analysis of the deposited data

How the results depend on the processing

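Alternatives were run one at a time. Of 127 values, 99 stayed within the interval of the reported value (or within 1.5 times for counts) and 28 moved. The 581 merged regions became 205 at a −log10 q of at least 10 and 241 at equal list size. The share in both lists, 24.4%, became 20.5% at a −log10 q of at least 10, 43.2% at equal list size and 20.3% when summits had to lie within 100 bp, while the CDS share of 40.8% ranged within its interval. Other distances to a TSS, protein-coding TSS only, basic transcripts, an overlap of 50% of the shorter peak and masked bases moved none of these 3 values, nor did leaving out repeated words or adding RefSeq starts, both added after seeing the data.

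For motifs over all members, AP-1 in the control female list fell from 19.4% to 8.89% (45 peaks) at a −log10 q of at least 10, but in the VEDS male list rose from 12.5% to 16.8% and was 9.58% in 200-bp windows. TEAD was 10.0% in 200-bp windows and in whole peaks in the control female list (17.1% in 300 bp) and 7.78% in 200-bp windows in the VEDS male list (12.7%), where ZEB1 was 11% (17.7%). Stricter thresholds of 5 and 10 select stronger peaks by construction. In the control female list they gave median widths of 252 and 291 bp, fold enrichments of 7.23 and 8.52, pileups of 14 and 20 and rank percentiles of 50.3 and 28.5, and in the VEDS male list 256 and 308 bp, 6.43 and 7.87, 20 and 28, and 54.1 and 36.1.

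No paired analysis was possible because each group is 1 library and no test was made. With 1 library per list, no value can be ascribed to genotype, sex or depth. The short lists hold too few peaks to serve as replicates, and the depth of their libraries was not measured.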
